A study of Mus musculus with 2 samples.

Results

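The cyclins and kinases that carry a cell into and through mitosis were examined in livers regenerating after partial hepatectomy (PH), in mice of wild type (WT) and in mice lacking PPARβ (PPARβ-null, KO). The group held 10 genes of the 33224 gene symbols in the table of transcript levels. They were the cyclins Ccna2, Ccnb1 and Ccnb2, the cyclin-dependent kinase Cdk1, the Aurora kinases Aurka and Aurkb, the Polo-like kinases Plk1 and Plk4, and the kinases Nek2 and Melk. A row was taken where its gene name matched and it was not marked HIDATA (high data at the locus). Each of the 10 genes had 1 row that named no other gene. Liver RNA of male C57BL/6 mice was sequenced as 1 library per genotype. WT mice have the nuclear receptor PPARβ, and KO mice are null for it in the whole body rather than in hepatocytes alone. The labels gave both an age of 4 month, while other text of the record gave 3 to 5 month or 3 month. Both groups had PH, and it is the study's text, not the labels, that puts the livers at 48 hr after it. The sources used here do not say whether a library came from 1 mouse or from pooled mice.

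With 1 library per genotype there was no replicate, so no value carries an error between mice, no test was run and no p-value is given. The intervals printed cover counting error alone. Levels are the authors' FPKM estimates, that is, fragments divided by the length of the exons and by the mapped total of the library, so genes of different length can be compared. The worth of 1 fragment was taken as the median of low values of single-exon genes within a set range. Of 2847 such genes, 78 in WT and 68 in KO lay in that range, and the estimate could not fall outside it. By this estimate 1 FPKM on a transcript of 1 kb stood for about 53.0 fragments of WT RNA and 55.3 of KO RNA. The table named a different sequencing lane for each genotype, so lane and genotype cannot be told apart. The Ppard locus, which encodes PPARβ (chr17:28369699-28438414, mm9), was listed at 2.67 FPKM in WT and 2.42 in KO, and this sum over the locus does not tell the libraries apart by genotype. Across all 15727 symbols with a mean of at least 0.1 FPKM, 74.8% were lower in KO, and the median WT/KO ratio was 1.19. Of 10 hepatocyte markers, 9 had a usable estimate, and their sum was 13312 FPKM in WT and 15912 in KO, so both libraries held hepatocyte RNA. Of these markers Cps1 alone was 2-fold lower in KO (1597 and 743 FPKM), which it was not under any of 3 scalings tried (equal upper quartiles, ratios centred on the median, equal sums), and Cyp2e1 alone was 2-fold higher (1039 and 2319 FPKM).

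Cdk1 is inactive until a cyclin binds it. Cyclin A2 serves DNA replication and the passage to mitosis, and the B-type cyclins bring Cdk1 to the activity that condenses chromosomes and starts mitosis. The Aurora, Polo-like and Nek kinases then act on centrosomes, kinetochores and the spindle. Hepatocytes of an adult liver rarely divide, and after PH the remaining hepatocytes enter the cell cycle in near synchrony, so these transcripts are scarce in quiescent liver and abundant in a liver that is dividing. In bulk RNA, fewer cells in mitosis and less RNA per cell cannot be told apart.

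Promoters of many mitotic genes are known for a shared arrangement. They carry CCAAT boxes, which the factor NF-Y binds, and a short element near the start of the gene called the cell cycle genes homology region (CHR), which the MuvB complexes bind. Windows from 250 bases before to 50 bases after the annotated start were taken from the RefSeq promoter table (build GRCm38.p6, which is not the build of the expression table). They were found for 8 of the 10 genes, all but Ccna2 and Aurkb. The sequences below are shown because these elements lie in them. Each is written 5′ to 3′ in the direction of the gene, and base 1 is the first base of the gene, with no base 0. Capitals mark CCAAT (written ATTGG where it lies on the other strand), the CHR letters TTTGAA and their variant TTTAAA.
Ccnb1, 110 bases before the start, chr13:100786487-100786596, minus strand: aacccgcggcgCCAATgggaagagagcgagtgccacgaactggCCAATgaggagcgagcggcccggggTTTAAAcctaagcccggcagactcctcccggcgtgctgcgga
Ccnb2, 110 bases before the start, chr9:70421555-70421664, minus strand: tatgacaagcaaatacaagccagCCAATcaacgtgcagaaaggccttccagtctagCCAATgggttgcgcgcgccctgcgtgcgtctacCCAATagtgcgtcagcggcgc
Ccnb2, bases 1 to 24, chr9:70421531-70421554, minus strand: ggtaTTTGAAtcgcggaccgggcg
Cdk1, 110 bases before the start, chr10:69352913-69353022, minus strand: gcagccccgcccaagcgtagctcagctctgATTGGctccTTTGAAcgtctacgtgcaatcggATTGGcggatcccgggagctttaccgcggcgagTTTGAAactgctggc
Aurka, 110 bases before the start, chr2:172370571-172370680, minus strand: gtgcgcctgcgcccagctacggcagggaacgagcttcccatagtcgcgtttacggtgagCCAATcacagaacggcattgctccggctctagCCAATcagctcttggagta
Aurka, bases 24 to 47, chr2:172370524-172370547, minus strand: aggagaaccTTTGAAttgtaacgg
Plk1, 110 bases before the start, chr7:122159325-122159434, plus strand: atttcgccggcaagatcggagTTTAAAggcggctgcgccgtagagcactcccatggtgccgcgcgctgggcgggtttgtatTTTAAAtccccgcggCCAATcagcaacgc
Plk1, bases 22 to 45, chr7:122159456-122159479, plus strand: agcgccgcgTTTGAAttcggggag
Nek2, 110 bases before the start, chr1:191821363-191821472, plus strand: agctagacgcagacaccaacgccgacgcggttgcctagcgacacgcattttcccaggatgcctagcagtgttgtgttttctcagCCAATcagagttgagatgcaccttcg

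Of the 8 windows, 6 held CCAAT on either strand, against 37.4% of all 32851 windows of the same length. The rarer arrangement was a pair of CCAAT on the same strand, 31 to 34 bases apart from start to start. It was present in 5 of the 8 windows and in 0.895% of all windows. The distances were 32 bases in Ccnb1, Cdk1 and Aurka and 33 in Nek2, and Ccnb2 held 3 boxes, each 33 bases from the next. In Nek2 the pair lies across the start, with the second box at base 8. TTTGAA on either strand was found in 4 of the 8 windows, those of Ccnb2, Cdk1, Aurka and Plk1, against 17.9% of all windows. Its variant TTTAAA, which reads the same on both strands, was found in 4, those of Ccnb1, Aurka, Plk1 and Plk4, against 13.2%. CCAAT and TTTGAA lay together in 4 windows against 6.95% of all, and the CCAAT pair and TTTGAA in 3 against 0.137%. Of the letters TTTCCCGC, TTTGGCGC or TTTCGCGC, as E2F factors bind, 1 window held a match, that of Cdk1 at base -131, against 1.84% of all windows. A match of letters is a description and no measure of binding.

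The windows of Plk4 and Melk are shown for contrast. That of Plk4 held 1 of these elements, TTTAAA at base -135, outside the stretch printed, and that of Melk held none.
Plk4, 110 bases before the start, chr3:40799841-40799950, plus strand: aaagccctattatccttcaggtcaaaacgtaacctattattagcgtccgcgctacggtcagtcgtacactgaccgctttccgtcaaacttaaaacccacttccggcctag
Melk, 110 bases before the start, chr4:44300807-44300916, plus strand: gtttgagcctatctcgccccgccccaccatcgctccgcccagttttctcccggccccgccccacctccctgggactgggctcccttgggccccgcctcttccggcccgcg

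**Figure D1:**
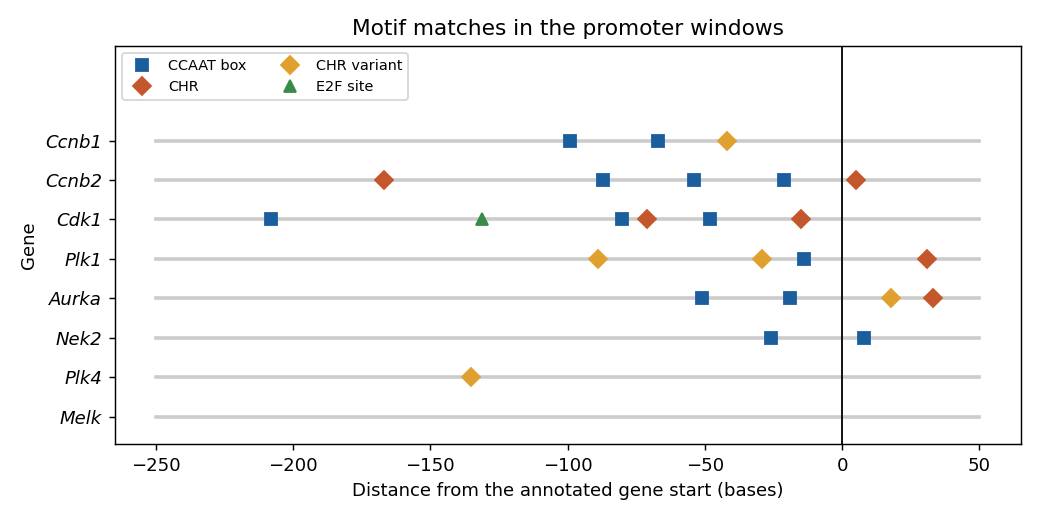
Matches of the CCAAT box, CHR (TTTGAA), CHR variant (TTTAAA) and E2F letters in the promoter windows of 8 genes, by distance from the annotated gene start in bases. Blue squares 32 or 33 bases apart are seen in Ccnb1, Ccnb2, Cdk1, Aurka and Nek2, while the Plk4 line carries 1 mark and the Melk line none.

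All 10 genes were expressed at more than 1 FPKM in the WT library, from 1.94 for Melk to 41.9 for Cdk1, and all 10 were lower in the KO library. The KO level was at least 2-fold lower for 10 of 10, where 13.4% of all symbols tested were. Among the 11723 symbols with a mean of at least 1 FPKM, 8.69% were 2-fold and 1.33% were 10-fold lower. The KO level was at least 10-fold lower for 10 of 10, against 1.88% of all symbols tested, and at least 50-fold lower for 7 of 10, against 0.922%. No gene of the group was higher in KO, and 2.79% of all symbols were higher by at least 2-fold. The median level of the group was 15.8 FPKM in WT and 0.173 FPKM in KO. The levels summed to 159 FPKM in WT and 4.40 in KO, a 36.2-fold difference. The median log2 KO/WT on the log2(FPKM + 0.1) scale was -5.58 for the group and -0.25 for all symbols tested. That scale understates the difference of low genes. The median of the WT/KO ratios themselves, with Melk at its bound against a floor of 3 fragments, was 93.1.

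**Figure D2:**
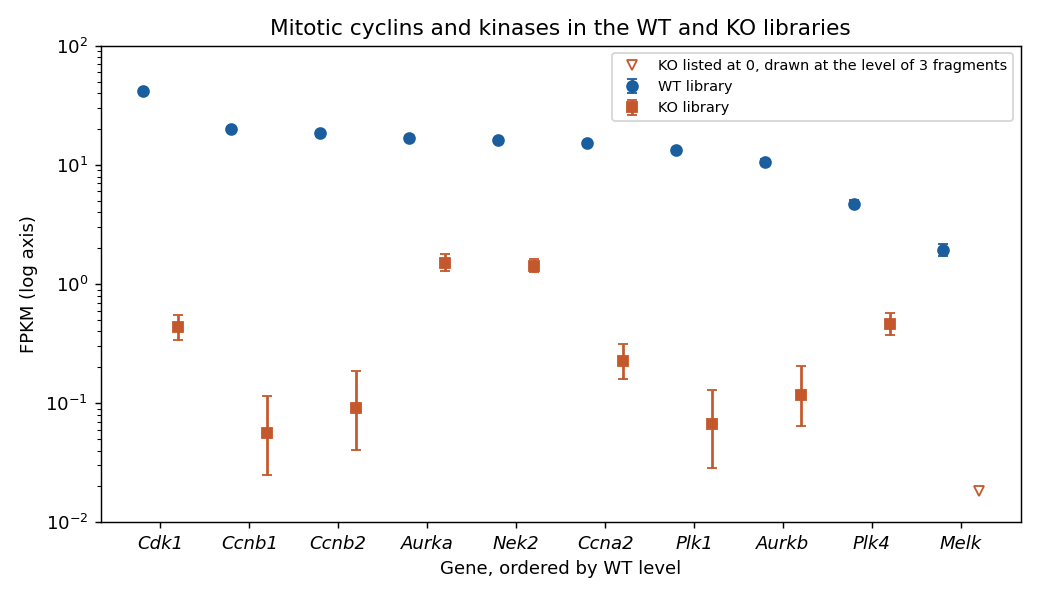
FPKM of each gene on a log axis in the WT library (blue circles) and the KO library (orange squares), 1 library each, with 95% counting intervals. Every WT point lies above every KO point, and the open triangle places Melk, listed at 0 in KO, at the level of 3 fragments.

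The cyclins were among the genes furthest apart. Ccnb1 (ENSMUSG00000041431.10, chr13:101548651-101556525, mm9) encodes cyclin B1, the principal partner of Cdk1 at mitotic entry. Its level was 20.2 FPKM in WT against 0.0562 in KO, which gives a ratio of 360 (95% counting interval 176 to 807). The KO level rested on about 7.74 fragments and the WT level on about 2670. Ranked by log2 KO/WT among the 11964 symbols with at least 1 FPKM in WT, Ccnb1 stood at place 5 from the lowest.

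Ccnb2 (ENSMUSG00000032218.6, chr9:70255496-70269361) encodes cyclin B2, a second B-type partner of Cdk1. It was 18.4 FPKM in WT and 0.0907 in KO, with a ratio of 203 (99.4 to 456), and ranked 11. The B-type cyclins were nearly equal in WT, with Ccnb1 at 1.10 times Ccnb2, and in KO Ccnb1 was 0.620 times Ccnb2. Their KO intervals, 0.0251 to 0.114 FPKM for Ccnb1 and 0.0405 to 0.185 for Ccnb2, overlap, so the order in KO is not resolved at this depth.

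Ccna2 (ENSMUSG00000027715.3, chr3:36451528-36471768) encodes cyclin A2, which partners Cdk2 in S phase and Cdk1 thereafter. It was 15.3 FPKM in WT against 0.227 in KO, a ratio of 67.2 (49.0 to 96.4), the smallest of the cyclins. The interval lies wholly below that of both B-type cyclins. The locus of this row also spans Exosc9 on the opposite strand, whose annotation overlaps that of Ccna2 by 864 bases. Exosc9, an exosome subunit, was 10.5 FPKM in WT against 5.79 in KO, a ratio of 1.81, and whether its reads add to the Ccna2 value was not tested.

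Cdk1 (ENSMUSG00000019942.6, chr10:68799383-68815686), the kinase that these cyclins activate, was the most abundant of the group in WT at 41.9 FPKM and stood at 0.434 in KO. The ratio was 96.6 (76.5 to 125), on about 6413 fragments in WT and 69.2 in KO, the best counted of the large differences. The summed level of the cyclins was 1.29 times that of Cdk1 in WT and 0.863 times in KO. The cyclins made up 33.8% of the group's summed FPKM in WT and 8.50% in KO.

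The Aurora kinases separated in size. Aurka (ENSMUSG00000027496.9, chr2:172181690-172196035) encodes the Aurora kinase of centrosomes and spindle poles. It was 16.8 FPKM in WT against 1.52 in KO, a ratio of 11.1 (9.42 to 13.1). Aurkb (ENSMUSG00000020897.6, chr11:68859149-68865166) encodes the catalytic subunit of the chromosomal passenger complex, which corrects attachments of chromosomes to the spindle. It was 10.5 FPKM in WT against 0.118 in KO, a ratio of 89.5 (50.9 to 165), and the intervals of the pair do not overlap. Aurka was 1.60 times Aurkb in WT and 12.9 times in KO. The Aurka locus ends 145 bases from Cstf1 (7.02 FPKM in WT, 5.43 in KO) and begins 440 bases from 2010011I20Rik (16.8 in WT, 38.8 in KO), both on the opposite strand. Whether reads of these neighbours enter the KO value of Aurka was not tested.

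The Polo-like kinases showed the same kind of split. Plk1 (ENSMUSG00000030867.6, chr7:129302951-129313389), which acts at mitotic entry, at the spindle and in cytokinesis, was 13.3 FPKM in WT against 0.0674 in KO, a ratio of 198 (103 to 471). Plk4 (ENSMUSG00000025758.5, chr3:40603941-40620805), which starts the duplication of centrioles, was 4.73 FPKM in WT against 0.461 in KO, a ratio of 10.3 (8.21 to 12.9). Plk4 was 0.355 times Plk1 in WT and 6.84 times Plk1 in KO, so the order of the pair was turned, and the intervals of their ratios do not overlap.

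Nek2 (ENSMUSG00000026622.8, chr1:193644319-193656972) encodes a kinase that loosens the link between centrosomes before the spindle forms. It was 16.3 FPKM in WT against 1.43 in KO, a ratio of 11.4 (9.98 to 13.0), on about 256 fragments in KO, the largest number in the group. Melk (ENSMUSG00000035683.7, chr4:44313748-44377547), an AMPK-related kinase found in dividing cells, was the lowest of the group in WT at 1.94 FPKM, on about 304 fragments. It was listed at 0 in KO. With a floor of 3 fragments in that library, or 0.0184 FPKM, Melk was at least 106-fold lower.

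By the size of the ratio the group fell into a set of 7 and a set of 3. In the first, 6 genes lay between 67.2 and 360 and Melk had its lower bound of 106, and in the second, Aurka, Nek2 and Plk4 lay between 10.3 and 11.4. The 3 products act at centrosomes, but this does not mark the set, since Plk1, with a ratio of 198, does too. These 3 made up 23.7% of the group's summed FPKM in WT and 77.4% in KO. No counting interval of the 3 (highest bound 13.1) meets one of the other genes with an interval (lowest bound 49.0). The sets were drawn by these same ratios, so this gap and the ranks that follow describe the sets and do not test them. Their ranks were 153 for Nek2, 157 for Aurka and 196 for Plk4, and all of the other 7 ranked within the lowest 100, with 4 within the lowest 20. The 3 genes stand close to the 10-fold mark, and this placement depends on how the libraries are scaled. With the log2 ratios centred on the median of expressed genes their ratios were 9.64 for Nek2, 9.41 for Aurka and 8.70 for Plk4. So 7 rather than 10 genes were at least 10-fold lower, and the share of all symbols was not counted at that setting.

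**Figure D3:**
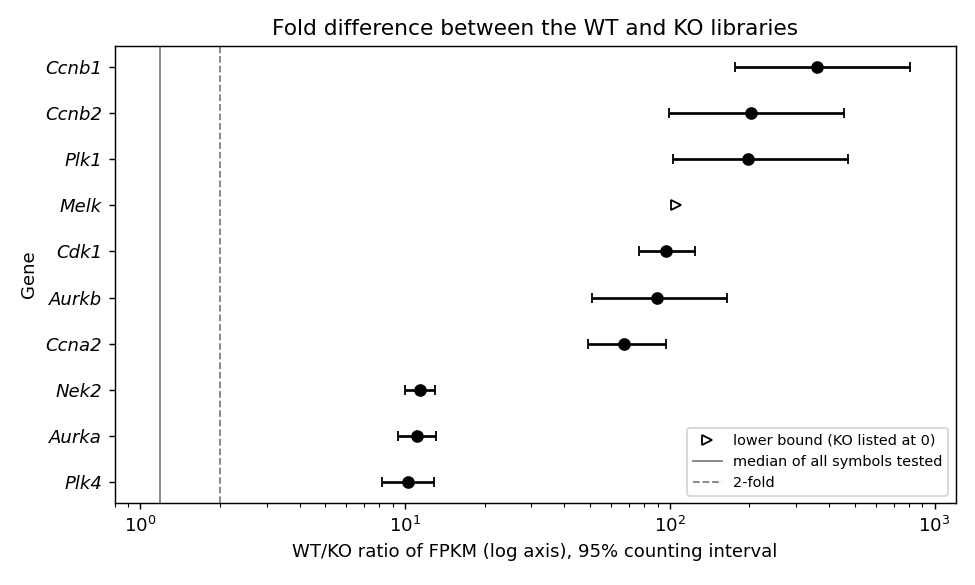
WT/KO ratio of FPKM of each gene on a log axis, with 95% counting intervals, the median of all symbols (solid line) and a 2-fold ratio (dashed line). Plk4, Aurka and Nek2 sit at 10.3 to 11.4, apart from the 6 other genes with a ratio at 67.2 to 360, and the open triangle is the lower bound of Melk.

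The order of the WT levels ran from Cdk1 through Ccnb1, Ccnb2, Aurka, Nek2, Ccna2, Plk1, Aurkb and Plk4 to Melk. Of these neighbours, Ccnb2 and Aurka, Aurka and Nek2, and Nek2 and Ccna2 had overlapping counting intervals, and the others did not. The order in KO was Aurka, Nek2, Plk4, Cdk1, Ccna2, Aurkb, Ccnb2, Plk1, Ccnb1 and Melk. There only Nek2 and Plk4, and Cdk1 and Ccna2, were neighbours whose intervals do not overlap, among the 9 genes above 0. Across the 10 genes, Spearman's rho between the WT and the KO level was 0.19, and between the WT level and log2 KO/WT it was -0.52. These describe 10 points from the same pair of libraries. The WT level is itself part of log2 KO/WT, so both sides of the second value share it and no conclusion is drawn from it.

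Near copies elsewhere in the genome could share reads with some of the group. Copies of at least 300 bases and 90% identity were found for 5 of the 10 genes, and for Ccna2, Cdk1, Aurka, Aurkb and Melk none was found. Ccnb1 had 5, the closest being the pseudogenes Gm5593 on chromosome 7 (99.1% identical over 1525 bases, 3.78 FPKM in WT and 0.00762 in KO) and Gm12856 on chromosome 4 (98.3%, 1.19 in WT and listed at 0 in KO). Their rows moved with that of Ccnb1, and how reads were divided among the 3 rows was not tested. With both rows added, Ccnb1 was 25.2 FPKM in WT against 0.0638 in KO, a ratio of 395. Plk1 had 1 copy, Plk-ps1 on chromosome 5 (93.6% identical, 0.260 FPKM in WT and 0.148 in KO). Plk4 had 2 stretches within Gm9742 on chromosome 13 (0.165 in WT and 0.190 in KO), each under 0.2 FPKM. Nek2 had a stretch of 645 bases on chromosome 18 (98.1%) and Ccnb2 3 stretches on chromosome 14 (93.9%), none with a row in the table.

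The other genes of the Cdk1 switch, which include further cyclins, differed widely in ratio. Of 14 subunits and regulators of the Cdk1 switch, 11 passed the filter of 0.1 FPKM, 8 were at least 2-fold lower in KO, none higher, and the median log2 KO/WT was -1.48. Pkmyt1 and Wee1, the kinases that hold Cdk1 inactive, were 5.73 and 0.131 FPKM (43.8-fold lower, 25.9 to 77.4) and 8.56 and 0.869 FPKM (9.85-fold lower). Cdc25c, the phosphatase that removes their mark, was 2.07 FPKM in WT and 0.00889 in KO, where about 0.954 fragment gave a ratio of 233 with an interval of 39.4 to 8816. The most abundant of the list, Arpp19, an inhibitor of the phosphatase that opposes Cdk1, was 73.8 and 54.1 FPKM. Gtse1 was 33.4 and 38.2, but its row is shared with Ttc38.

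The partners of the Auroras spread over a wide range of sizes. Of 8, 7 passed the filter, and 6 were at least 10-fold lower in KO, with a median of -4.08. Birc5, the survivin subunit that sits with Aurkb, was 25.5 FPKM in WT and 0.111 in KO (229-fold, 146 to 362). Tpx2, which activates Aurka on the spindle, was 9.03 and 0.0759 FPKM (119-fold, 76.5 to 205), a larger ratio than that of Aurka itself. Incenp, the scaffold of the Aurkb complex, was 6.22 and 0.273 FPKM (22.8-fold, 17.0 to 30.8), an interval between those of Aurka and Aurkb, and Ajuba, an activator of Aurka, was 4.17 and 2.84 FPKM (1.47-fold), both chosen after their values were seen. Sgol2, which guards the cohesion of centromeres, was 1.38 and 0.0112 FPKM, on about 3.06 fragments in KO (ratio 124, interval 42.7 to 613).

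Among 11 genes of centrioles and centrosomes, with which Plk4 and Nek2 act, 6 were at least 2-fold lower as deposited and 4 under each of the 3 scalings, and the median was -1.02. Stil, which Plk4 phosphorylates to build a centriole, was 1.31 and 0.0319 FPKM (40.9-fold). Sass6, the cartwheel protein of the new centriole, was 1.35 and 0.254 FPKM (5.33-fold), and Cep192, which recruits Plk4, was 1.78 and 0.417 FPKM (4.27-fold). Nedd1, which anchors the γ-tubulin ring, was 7.23 and 4.85 FPKM.

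Other mitotic kinases were also apart. All of 11 passed the filter, 8 were at least 2-fold and 6 at least 10-fold lower in KO, and the median was -3.31. Bub1, the checkpoint kinase, was 2.68 FPKM in WT and listed at 0 in KO, at least 169-fold lower against 3 fragments. Its counting interval began lower, at 137. Pbk, a kinase of dividing cells, was 16.9 and 0.0721 FPKM (235-fold), and Ttk, which starts the spindle checkpoint, was 4.59 and 0.0338 FPKM (136-fold). The Nek kinases that act in mitosis but are present throughout the cycle had nearly equal levels, with Nek6 at 35.9 and 34.1 FPKM and Nek7 at 16.5 and 18.8.

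Most relatives of the group by sequence family that were not placed in the other lists differed little. Further relatives, among them Cdk2, Ccne1 and Ccne2, are given with the genes of G1 and S phase. Of 12 other cyclin-dependent kinases that passed, none was 2-fold lower or higher, with a median of -0.32, and Cdk9 was 15.3 FPKM in WT and 16.0 in KO. Of 13 other cyclins, Ccng1 alone was past 2-fold (19.3 and 9.17 FPKM, 2.10-fold), and under each of the 3 scalings none was. Of 7 other Polo and Nek kinases, Nek3 and Plk2 were past 2-fold as deposited, and Nek3 alone was under each scaling. Of 12 AMPK-related kinases, the family of Melk, none was 2-fold lower, and Sik1 was higher at 7.48 FPKM in WT and 15.4 in KO.

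**Figure D4:**
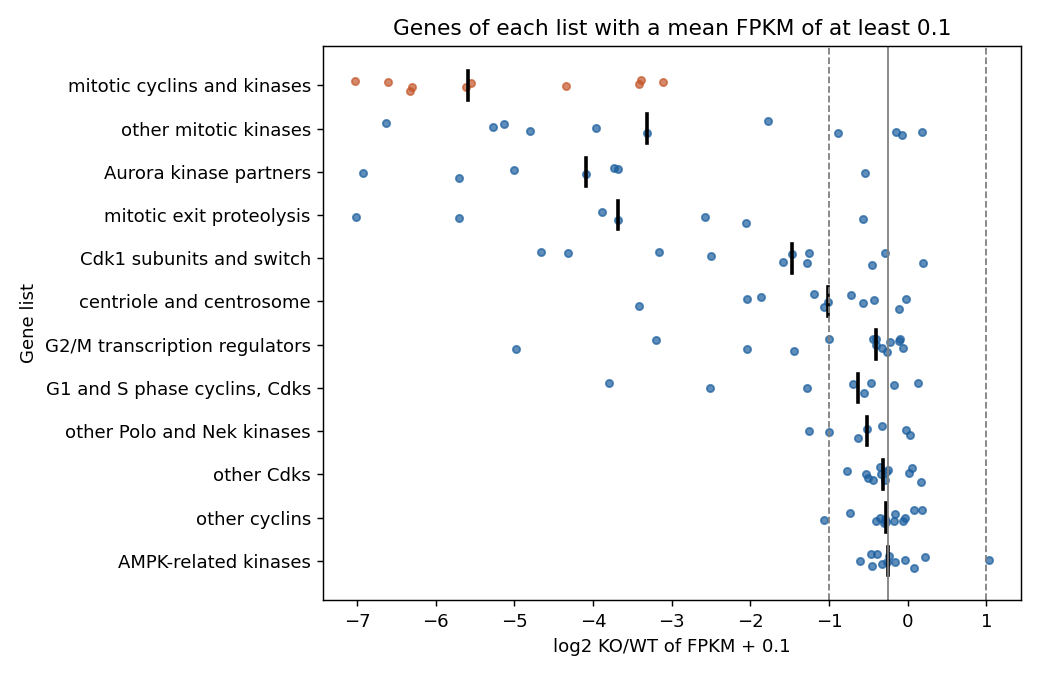
Log2 KO/WT of FPKM + 0.1 for every gene of 12 lists with a mean of at least 0.1 FPKM, with the median of each list as a black bar, the median of all symbols as the solid line and 2-fold as dashed lines. The mitotic cyclins and kinases (orange) lie between -7.02 and -3.10, and the other cyclins, Cdks and AMPK-related kinases lie near the line of all symbols.

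The cyclins and kinases of G1 and S phase, which act before the group described here, lay between. Of 8, 3 were at least 2-fold lower in KO and the median was -0.63. Ccne2 and Ccne1, the E-type cyclins of S phase entry, were 5.42 and 0.298 FPKM (18.2-fold) and 7.23 and 1.18 FPKM (6.12-fold), and Cdk2, their kinase, was 7.92 and 3.22 FPKM (2.46-fold). Ccnd1, the D-type cyclin of G1, was 21.3 and 23.5 FPKM and Cdk4, its kinase, was 28.3 and 25.1.

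The regulators known to act on mitotic promoters, activators and repressors alike, were mixed. Of 14, 5 were at least 2-fold lower as deposited and 4 under each scaling, with a median of -0.40. Foxm1, a factor of mitotic genes, was 7.62 and 0.144 FPKM (52.7-fold, on a row shared with 4933413G19Rik). Rbl1, a pocket protein of the repressor form, was 4.00 and 0.348 FPKM (11.5-fold), and Lin9, of the MuvB core that binds the CHR, was 2.60 and 0.556 FPKM (4.67-fold). Rbbp4, of the same core, was 48.7 and 36.7 FPKM.

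The genes of proteolysis at mitotic exit, among them activators, inhibitors and a substrate of the anaphase-promoting complex, were low as well. Of 7, 6 were at least 2-fold lower in KO, with a median of -3.68. Cdc20, the activator of the anaphase-promoting complex, was 33.6 and 0.161 FPKM (209-fold), and its ubiquitin-conjugating enzymes Ube2c and Ube2s were 36.1 and 0.594 FPKM (60.7-fold) and 58.7 and 14.1 FPKM (4.16-fold). Pttg1, the securin that it removes, was 19.3 and 1.21 FPKM (15.9-fold).

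Of the 4 proliferation markers, all were at least 2-fold lower in KO. Mki67, the Ki-67 antigen, was 10.9 and 0.0445 FPKM (246-fold) and Top2a, the topoisomerase of condensed chromosomes, was 18.7 and 0.170 FPKM (110-fold, on a row shared with SNORA32). Pcna, the sliding clamp of replication, was 66.8 and 13.0 FPKM (5.13-fold), and Mcm2, of the replicative helicase, was 10.0 and 1.32 FPKM (7.61-fold). The ratios of Aurka, Nek2 and Plk4 thus lie nearer to those of the replication genes and those of the other 7 nearer to Mki67 and Top2a. None of 10 reference genes was past 2-fold in either direction, and their median was -0.48.

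Markers of other liver cells were compared because the share of each cell type can move bulk levels. Of 10 macrophage markers 9 were lower in KO at all, where 74.8% of all symbols tested were. At least 2-fold lower was 1 of the 10, where 13.4% of all symbols were. Of the other markers that passed the filter, 2 of 4 neutrophil, 2 of 5 cholangiocyte and 2 of 7 stellate markers were. So were 1 of 3 lymphocyte, 1 of 7 endothelial and 1 of 7 erythroid markers. After centring on the median, 9.46% of all symbols were 2-fold lower. The macrophage, cholangiocyte, stellate and erythroid counts then stayed, and those of neutrophils, lymphocytes and endothelial cells were 0. The macrophage sum was 99.9 FPKM in WT and 65.2 in KO. The endothelial sum was 50.3 and 36.4, the stellate cell sum 102 and 63.1, the cholangiocyte sum 29.8 and 25.7 and the erythroid sum 297 and 253. The neutrophil sum was 15.0 and 7.92, with Ly6g, Mpo and Camp listed at 0 in both libraries, and the lymphocyte sum was 0.919 and 0.529. The largest of these ratios of sums was 1.89, but a sum rests mostly on its abundant genes, such as Dcn (62.6 and 46.9 FPKM) for stellate cells and Spp1 (24.5 and 22.7) for cholangiocytes. Single markers differed more. The collagen genes Col1a1 and Col3a1 were 8.56 and 1.75 FPKM (4.88-fold lower in KO) and 14.5 and 3.18 FPKM (4.57-fold). The biliary keratins Krt7 and Krt19 were 3.11-fold and 3.08-fold lower, the macrophage receptor Csf1r 2.43-fold and the endothelial Lyve1 2.33-fold. The erythroid Slc4a1, low in both libraries, was 0.158 FPKM in WT and 0.0461 in KO (3.42-fold lower). With the ratios centred on the median, Lyve1 was no longer past 2-fold. Some markers were not lower in KO. The erythroid Alas2 was 20.6 FPKM in WT and 37.5 in KO, the macrophage Marco 6.58 and 7.37, and the endothelial Tek 1.80 and 1.81. The part that cell makeup has in the levels of the mitotic genes was not tested.

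Over the 10631 other symbols compared, those with log2 KO/WT nearest to the median of the group were Racgap1, E130306D19Rik, Nuf2, Kif2c and Shcbp1. Racgap1, of the central spindle in cytokinesis, was 10.0 FPKM in WT and 0.114 in KO. Nuf2, of the outer kinetochore, was 7.69 and 0.0590, and E130306D19Rik was 6.83 and 0.0475. Kif2c, a kinesin that takes apart microtubules at centromeres, was 5.26 and 0.0166 FPKM, on about 2.61 fragments in KO, with a ratio of 316 and an interval of 94.0 to 1340. Shcbp1 was 7.20 and 0.0462 FPKM. The likeness rests on a single contrast of 2 libraries.

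**Figure D5:**
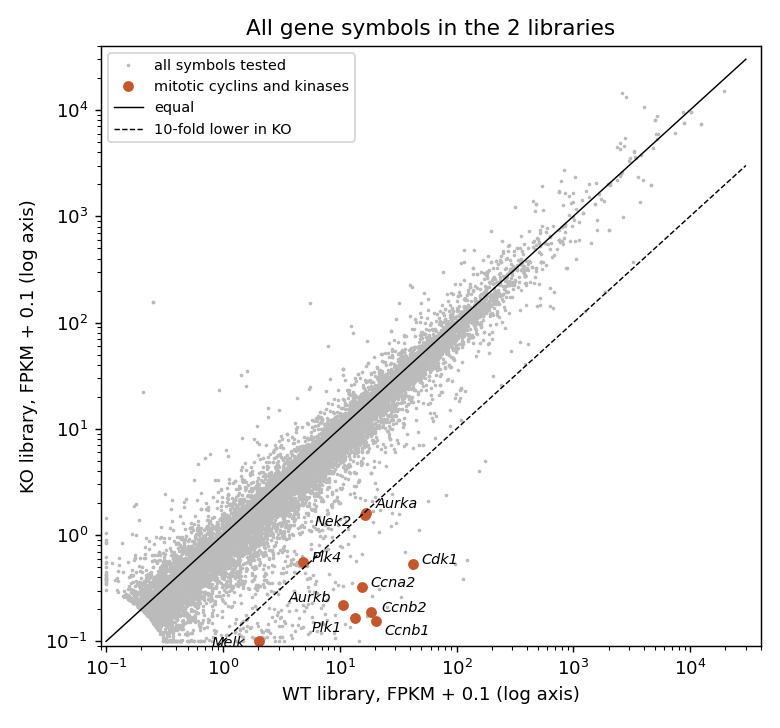
FPKM + 0.1 of every symbol tested in the WT library against the KO library, both on log axes, with the line of equal levels and that of 10-fold lower in KO. Cdk1, Ccnb1, Ccnb2, Ccna2, Aurkb and Plk1 lie far below the dashed line, Melk lies on the floor of the plot, and Aurka, Nek2 and Plk4 lie close to the dashed line.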

How the data were processed

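Liver RNA was analysed as 1 WT and 1 KO library. Per the labels and the study's methods, libraries were made with the TruSeq RNA kit and sequenced on a HiSeq 2000 with reads of 100 bp. The labels name paired-end reads and the methods single-end reads. The authors aligned the reads to mm9 (NCBI37) with TopHat2 2.0.0, assembled transcripts with Cufflinks 1.3.0 and used Cuffdiff to deposit 1 FPKM per locus and library. Quartile normalization is not given in the sources used here. The authors' columns of fold change, test statistic, p-value, q-value and significance were not used.

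The table held 38016 loci, of which 2302 had no symbol and 850 named several symbols. Another mark, HIDATA, for high data at the locus, was on 21 loci, which were left out. Rows of the same symbol were summed, and a row naming several symbols gave its value to each. Symbols with a mean of at least 0.1 FPKM were counted and log2 values used a pseudocount of 0.1 FPKM. Expressed genes had a mean of at least 1 FPKM. Depth was estimated from the first step of low values of single-exon genes, sought within a set range. That step was 0.0189 FPKM in WT and 0.0181 in KO for 1 fragment on 1 kb. FPKM were turned into fragments with the longest annotated transcript, and 95% Clopper-Pearson intervals of the KO share were turned into ratios. These intervals and the floor of 3 fragments per library cover counting error only, and the read totals are not given. The steps were checked on simulated libraries. Their worth of 1 fragment lay within the range searched, so the choice of that range was not tested.

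The members and lists were chosen with earlier results of these data known. Genes named besides the members were, in each list, at most 3 with the largest fold lower in KO, at most 2 with the largest fold higher and the most abundant, and the 5 symbols nearest the median of the group. Exosc9, Cstf1, 2010011I20Rik and the near copies were named for their position or sequence, and Incenp, Ajuba, Ly6g, Mpo and Camp after their values were seen. Bora, Cdk10 and Ahsp had no row under these names, and Alb was marked HIDATA. Coordinates of genes are those of the deposited loci on mm9, counted from 1, and gene identifiers and transcript lengths come from the annotation of that build. Near copies were sought on that build with blastn 2.17.0. Promoters came from RefSeq on GRCm38.p6. Values came from pandas 2.3.3 and numpy 2.4.6 under Python 3.11.15, intervals from scipy 1.17.1 and plots from matplotlib 3.10.9. Alternatives covered the pseudocount, the fold, the filter, the scaling and the handling of rows.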

Additional observations from a re-analysis of the deposited data

How the results depend on the processing

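The count of 10 of 10 genes lower in KO by at least 2-fold was the same with a fold of 1.5 or 4 and under all 3 scalings. Of all symbols tested, 9.86% were 2-fold lower under the scaling by upper quartiles, 9.46% by centring and 10.9% by equal sums. The shares of all symbols at folds of 1.5 and 4 were not counted. The median log2 KO/WT of -5.58 ranged from -3.55 with a pseudocount of 1 FPKM to -6.46 with 0.01 FPKM, and was -5.45, -5.43 and -5.49 under the scalings. In 61 alternatives for single genes of the group every value stayed below 0, between -1.55 and -8.26. A pseudocount cannot turn a sign, the scalings were small beside these ratios and each gene had 1 row. The sign was thus fixed beforehand, the added pseudogene rows aside. In size, 19 of the 61 moved outside the counting interval of the KO level. Of the list medians, that of the erythroid markers alone turned sign, from -0.10 to between 0.02 and 0.09 under the scalings. The scalings raised KO by 0.20, 0.24 and 0.15 on the log2 scale. Of all symbols past 2-fold, 82.7% were lower in KO as deposited and 68.9% after centring. The share of all symbols lower by at least 2-fold was 8.69% with a mean of at least 1 FPKM and 21.0% with no filter. At least 10-fold lower were 7 genes of the group under the scaling by upper quartiles and by centring and 9 by equal sums. The share of all symbols at 10-fold was counted only as deposited, where it was 1.88%. Adding the Ccnb1 pseudogene rows and the count at 10-fold were alternatives chosen after seeing the data. No paired analysis was possible because each genotype has 1 library, and for the same reason no library could be left out. Depth limits the KO levels of Ccnb1, Ccnb2, Plk1 and Aurkb, each on fewer than 13 fragments.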

Other observations

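Other genes with the same promoter letters were counted as a description, after the sequences of the mitotic genes had been seen. Besides the group, 583 tested symbols had a window with both CCAAT and TTTGAA, and 137 of them (23.5%) were at least 2-fold lower in KO, where 12.9% of the 9681 tested symbols with any window were. At least 10-fold lower were 8.58% against 1.69%. Counted by a single element or by the pair, whatever else the window held, the shares stood nearer to the 12.9% at 2-fold. They were 14.9% of 4161 tested symbols for CCAAT, 17.6% of 1437 for TTTGAA and 15.6% of 173 for the CCAAT pair. These sets include the symbols whose windows held both elements. At 10-fold the shares were 2.40% for CCAAT, 4.94% for TTTGAA and 2.89% for the pair, against the 1.69% of any window. With the CCAAT pair and TTTGAA, 10 of 28 tested symbols (35.7%) were at least 2-fold lower and 4 (14.3%) at least 10-fold lower. The lowest were Hmmr, a spindle protein (12.1 FPKM in WT, 0.0367 in KO), Ube2c (36.1 and 0.594) and Cdca8, the borealin subunit of the Aurkb complex (10.6 and 0.234). At the other end, A930038B10Rik was 0.320 FPKM in WT and 0.606 in KO. Among others not lower in KO, Ccl25, a chemokine, was 3.19 FPKM in WT and 3.60 in KO. Hgf, the growth factor of hepatocytes, was 4.15 and 4.22. Of these, Hmmr, A930038B10Rik, Ccl25 and Hgf were chosen after their values were seen.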
